A study of Mus musculus with 12 samples.

Results

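The transcriptome described here is that of cortical astrocytes from control mice on postnatal day 16. It consists of the 4 ctrl-2 libraries, replicates 4, 5, 6 and 7, chosen by their genotype label from the 12 libraries of the series. According to the series description, ctrl-2 mice carried 1 floxed and 1 wild-type Nmnat2 allele, the Nex-Cre transgene and 1 Sarm1 null allele. Nmnat2 encodes an enzyme that makes NAD in neurons, and Sarm1 encodes an enzyme that breaks it down. The study describes Nex-Cre as active in glutamatergic neurons, so these astrocytes came from brains whose glutamatergic neurons had lost 1 copy of Nmnat2. The description gives ctrl-2 mice 1 Sarm1 null allele, whereas the methods of the study allow 0 or 1. Its results on lipids describe control-2 mice as having no Sarm1 null allele. Which mouse of these libraries had which genotype is not stated. The 2 mutant groups used for comparison, 4 libraries each, were cKO;S/+ (both Nmnat2 alleles floxed, Nex-Cre, 1 Sarm1 null allele) and cKO;S/S (the same with 2 Sarm1 null alleles). All 3 groups carried Nex-Cre and had the same age.

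Cells of the dissociated cortex were enriched for astrocytes with microbeads that bind the surface epitope ACSA-2, and their total RNA was sequenced, 1 library per mouse. The ctrl-2 libraries held 20998871, 20790759, 17903861 and 20232778 counted reads, in the order of replicates 4, 5, 6 and 7, which also holds for every set of 4 values. Rn45s, the precursor of ribosomal RNA, took between 7.87% and 8.20% of them. The deposited table has 15089 genes. Levels are given as counts per 1000000 reads (CPM), which depend on gene length, and as CPM per kilobase of exonic sequence (CPM per kb). CPM per kb is the scale of the ranks and of the choice of the highest members of a list. Sums over lists are in CPM and depend on the number and length of their genes. Ranks run from 1, the highest CPM per kb, over the 14977 genes of at least 200 bases. A rank printed for a gene is that of its mean over the 4 libraries. Errors are standard deviations over the 4 mice.

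Astrocytes clear glutamate and potassium released by active neurons, return glutamine to them, cover blood vessels with end-feet rich in water channels, and couple to each other through gap junctions. They also make most of the lipoprotein particles of the brain and secrete proteins that act on synapses. At this age, mouse cortical astrocytes are completing their maturation, and genes shared with their radial glial ancestors are still expressed.

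The libraries carried the markers of the labelled cell type. Slc1a2 (chromosome 2, 102658239 to 102790784 on GRCm38), which encodes the glutamate transporter GLT-1, stood at 15677, 15084, 15777 and 16617 CPM and ranked 6. Slc1a3 (chromosome 15, 8634124 to 8710807), the gene of the glutamate transporter GLAST, stood at 4194, 4391, 4639 and 4537 CPM and ranked 13. The 4 libraries lay within 1.102-fold of each other for the first gene and within 1.11-fold for the second. Aldh1l1 (chromosome 6, 90550768 to 90599171), an enzyme of folate metabolism widely used to mark astrocytes, had 257, 236, 289 and 254 CPM and ranked 450. Gfap (chromosome 11, 102887336 to 102897200), the intermediate filament of white matter and reactive astrocytes, had 158, 196, 259.6 and 201 CPM, with replicate 4 lowest and replicate 6 highest, and ranked 957 with a range of 667 to 1417 over the libraries. Atp1b2 (chromosome 11, 69599728 to 69605978), the subunit of the sodium pump that carries the ACSA-2 epitope used for the sort, ranked 14 at 965, 873, 1165 and 929.9 CPM per kb. Of 25 astrocyte markers, 24 were among the 1000 highest genes and 12 among the 100 highest. Together the 25 markers took 53140, 50507, 57789 and 53314 CPM, a ratio of 1.14 between the highest library and the lowest.

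**Figure D1:**
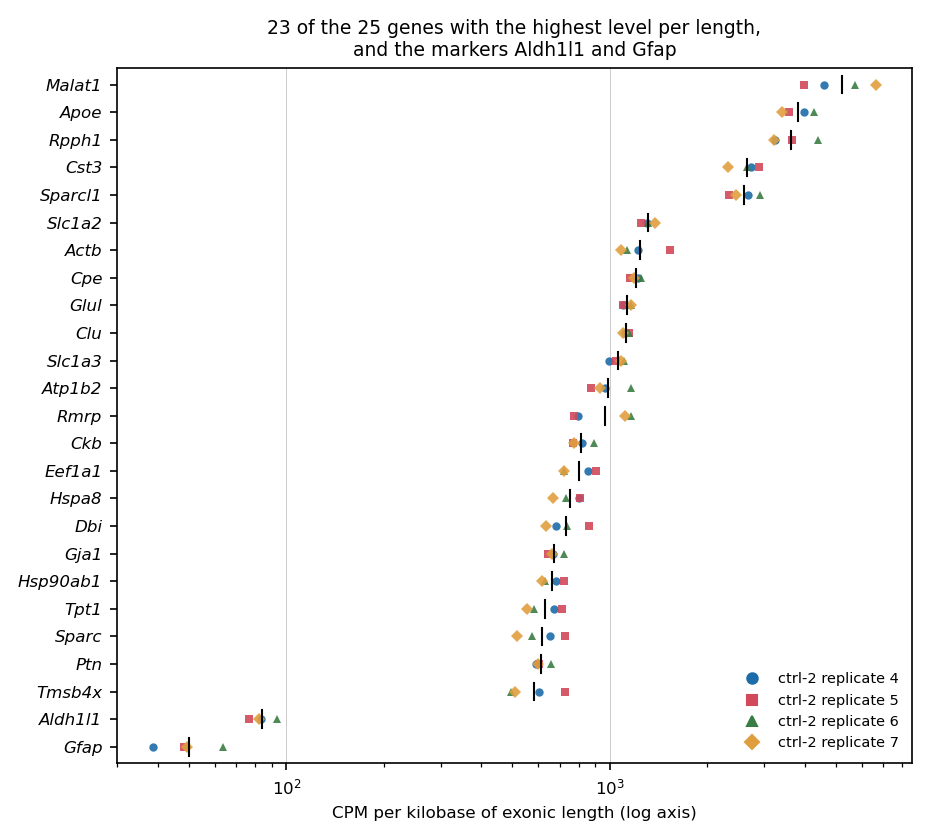
CPM per kb (log axis) of 23 of the 25 genes with the highest mean level and of the markers Aldh1l1 and Gfap in each ctrl-2 library (coloured symbols), with the mean of the 4 as a black bar. Libraries nearly coincide for Slc1a2, Glul and Clu, while Malat1 spreads from 3981 in replicate 5 to 6638 in replicate 7.

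Among protein-coding genes the highest level per length was that of Apoe, which encodes the main apolipoprotein of brain lipoproteins, at 3988, 3572, 4263 and 3394 CPM per kb. Cst3, the gene of the secreted protease inhibitor cystatin C, followed at 2726, 2879.8, 2660.2 and 2319 CPM per kb, and Sparcl1, whose product hevin promotes synapse formation, at 2669, 2338, 2906 and 2460.5. Cst3 and Sparcl1 exchanged places between libraries, so their order is not resolved. Below them, Slc1a2, Actb (actin), Cpe (a peptide-processing enzyme), Glul (glutamine synthetase), Clu (clusterin) and Slc1a3 were among ranks 6 to 13. Their mean levels lay between 1056 and 1308 CPM per kb, and the ranges of neighbours in this order overlapped. Ranks 14 to 25 held Atp1b2, Rmrp, Ckb (brain creatine kinase), Eef1a1, Hspa8, Dbi, Gja1 (connexin 43), Hsp90ab1, Tpt1, Sparc, Ptn (pleiotrophin) and Tmsb4x. Of these 25 genes, 3 make non-coding RNAs: Malat1, a nuclear RNA and the highest of all at 4599.5, 3981, 5715 and 6638 CPM per kb, and the RNA components of ribonuclease P (Rpph1) and ribonuclease MRP (Rmrp). The 100 genes with the highest CPM held 21.0% of all counts outside Rn45s. By CPM per kb, 82 genes were among the 100 highest in every library and 123 in at least 1.

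Transmitter uptake rested on few genes of very high level. Of 27 genes of uptake and the glutamate cycle, 6 were among the 100 highest and 11 among the 1000 highest, and their median was 27.7 CPM per kb, against 8.20 over all ranked genes. Within the glutamate transporter family, Slc1a2 had 1308 ± 52.3 and Slc1a3 1056 ± 45.9 CPM per kb (SD, n = 4), whereas the neutral amino acid transporter Slc1a4 had 73.7 ± 8.55, the neuronal glutamate transporter Slc1a1 9.83 ± 2.55 and Slc1a5 1.86 ± 0.238. Glul, which turns glutamate into glutamine, had the lowest CV of the list (the coefficient of variation, the SD as a share of the mean) and stood at 1099, 1099.5, 1164 and 1159 CPM per kb, and Glud1, which feeds glutamate carbon into the mitochondrion, had 248, 239.7, 268 and 249. Slc6a11, the GABA transporter GAT-3, had 401, 295, 463 and 289 CPM per kb, with replicate 6 highest. Slc6a11 had a CV of 23.5%, against 3.999% for Slc1a2. Slc7a10, an exchanger of serine and glycine, had 177, 169, 249.8 and 190.2 CPM per kb, and Slc38a3, which releases glutamine, had 121, 145, 177 and 142.

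Genes of potassium, water and ion transport were high as a group, with a median of 94.9 CPM per kb over 28 genes and 18 of them among the 1000 highest. Atp1b2 of the sodium pump was among the highest of them. Ttyh1, a member of the tweety family of chloride channels, had 461, 382, 482 and 425 CPM per kb, and Slc4a4, the sodium bicarbonate cotransporter, 243, 217, 281 and 212. Mlc1 and Hepacam, whose products form a membrane complex at end-feet, had 231 ± 14.7 and 207 ± 10.97 CPM per kb and differed little between libraries. Aqp4, the water channel of end-feet, had 179.6, 193, 248 and 177 CPM per kb, highest in replicate 6. Kcnj10, the potassium channel Kir4.1, which was named after its values were seen, had 168, 143, 179 and 151 CPM per kb, while its partner Kcnj16 had 36.5 ± 3.12. Cspg5, a membrane proteoglycan, was also among the 8 highest of the list at 163 ± 8.902.

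Of the gap junction genes, Gja1 (connexin 43) had 666, 644, 719 and 665 CPM per kb. Gjb6 (connexin 30) had 123, 111, 139 and 129 and Gjb2 (connexin 26) 14.5, 18.2, 17.8 and 17.4. The 3 connexins thus kept 1 order in every library, and no library of a lower member reached any library of the next. Cd81, a tetraspanin, reached 461, 352, 459 and 351 CPM per kb, in a pattern in which replicates 4 and 6 lay above replicates 5 and 7. Adhesion genes with mean levels between 122 and 239 CPM per kb included Gpm6a, F3 (tissue factor), Ncam1 and Gpm6b. Over the 24 measured genes of junctions and adhesion the median was 77.8 CPM per kb.

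Lipid genes were spread over a wide range, from Apoe to a lowest member at 2.61 CPM per kb, with 8 of 49 among the 100 highest. After Apoe and Clu came Dbi, which encodes the acyl-CoA binding protein, at 681, 864, 739 and 636 CPM per kb, and Ppap2b, a lipid phosphate phosphatase, at 544, 539.7, 632 and 522. Scd2, a fatty acid desaturase also high in oligodendrocytes, had 579, 452, 526 and 482 CPM per kb, highest in replicate 4. Pla2g7, a secreted phospholipase, had 409, 376, 501 and 404. Of the fatty acid binding proteins, Fabp5 had 282, 271, 305 and 258 CPM per kb and Fabp7, a gene of radial glia and young astrocytes, had 184, 231, 277 and 206, so that Fabp5 was the higher in every library although the 2 ranges overlapped.

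In the list of energy, amino acid and redox metabolism, 6 of 66 measured genes were among the 100 highest and 31 among the 1000 highest. Ckb led at 820.0, 771, 890.0 and 774 CPM per kb. Aldoc, the aldolase of astrocytes, had 521, 468, 549.5 and 525, Gapdh 235, 235, 241 and 220.0, and Ldhb, a lactate dehydrogenase subunit, 204, 222, 226 and 203. Sod1, superoxide dismutase, had 174 ± 11.6 CPM per kb. Metallothioneins, small proteins that bind zinc and copper, supplied 2 of the 4 highest members. Mt1 had 566, 550.1, 613 and 565 CPM per kb, Mt3, the brain form, 291, 320.2, 322 and 287, and Mt2, which lies next to Mt1 on chromosome 8, 168, 159, 182 and 176. The order Mt1, Mt3, Mt2 held in every library with no overlap. Since metallothionein genes are textbook targets of the zinc sensor MTF-1, which binds metal response elements, the promoters of the 2 neighbours are shown, from 250 bases before to 50 after the start (RefSeq, GRCm38.p6, plus strand, 5′ to 3′), with matches to TGCACNC or TGCGCNC on either strand in capitals. They lie at chr8:94178839-94179138 and chr8:94172368-94172667.
Mt1: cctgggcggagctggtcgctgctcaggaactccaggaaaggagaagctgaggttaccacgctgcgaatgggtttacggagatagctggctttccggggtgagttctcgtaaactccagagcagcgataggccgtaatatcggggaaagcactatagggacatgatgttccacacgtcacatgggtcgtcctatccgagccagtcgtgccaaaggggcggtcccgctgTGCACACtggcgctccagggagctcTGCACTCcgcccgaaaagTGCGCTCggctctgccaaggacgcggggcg
Mt2: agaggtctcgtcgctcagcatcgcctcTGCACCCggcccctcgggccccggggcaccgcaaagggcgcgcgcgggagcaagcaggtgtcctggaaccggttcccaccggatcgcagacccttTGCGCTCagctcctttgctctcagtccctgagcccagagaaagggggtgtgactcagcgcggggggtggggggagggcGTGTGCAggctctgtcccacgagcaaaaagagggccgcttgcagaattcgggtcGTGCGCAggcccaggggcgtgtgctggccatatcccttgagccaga
The Mt1 window held 3 matches, the Mt2 window 4 and the Mt3 window 1. Of 32851 promoters of the same length, 25.7% held at least 1 match and 1.97% at least 3. A match is a run of letters, and binding was not measured.

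Transcription factor genes were of lower level than the transporters, with a median of 12.1 CPM per kb over 291 measured genes, none among the 100 highest and 28 among the 1000 highest. The highest were Fos (138, 234, 184 and 206 CPM per kb) and Jun (153, 259, 176 and 166), partners in the AP-1 complex that rise within minutes of stimulation. Id2 (132 ± 10.2) and Id4 (124 ± 10.6) followed, which encode inhibitors of basic helix-loop-helix factors, and Id3 (39.6 ± 4.6) and Id1 (19.7 ± 2.1) of the same family were lower. Epas1, the hypoxia-inducible factor HIF-2 alpha, was the steadiest of the 8 highest at 123, 119, 124 and 125 CPM per kb, a CV of 1.98%. Egr1 and Junb, again immediate early genes, had 58.6, 169.7, 104 and 122 and 82.1, 155, 107 and 89.2 CPM per kb, and replicate 5 was highest for both. Sox9, a determinant of astrocyte fate, had 103, 114, 113 and 99.5. Within the Sox family, Sox2 had 89.2 ± 4.898 and Sox8 65.3 ± 7.96, while Sox10, a factor of the oligodendrocyte lineage, had 45.4, 19.9, 31.2 and 28.1 CPM per kb, highest in replicate 4 and lowest in replicate 5. The nuclear factor I genes, which drive astrocyte differentiation and were named after their values were seen, stood at 70.9 ± 2.88 (Nfix), 43.6 ± 2.21 (Nfia) and 43.2 ± 2.38 (Nfib) CPM per kb.

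Receptor genes had a median of 9.22 CPM per kb over 249 measured members, 35 of them among the 1000 highest. Ptprz1, a receptor phosphatase that binds pleiotrophin, was the highest at 297, 330.3, 353 and 308 CPM per kb, and its ligand gene Ptn had 592, 604, 658 and 601. S1pr1, a receptor for sphingosine 1-phosphate, had 283, 293, 319 and 319, against 9.77 ± 1.96 for S1pr3 and 1.84 ± 0.265 for S1pr2. Gpr37l1, an orphan receptor of astrocytes, had 277, 264, 321 and 272 CPM per kb. The fourth of the list, Csf1r at 229, 304, 185 and 148, is the growth factor receptor of microglia and is taken up with the other markers of that cell type. Ntsr2, a neurotensin receptor, had 191, 163, 223 and 202 CPM per kb. Fgfr3 had 177, 152, 208 and 179 and led its family, with Fgfr1 at 53.8 ± 6.095 and Fgfr2 at 43.3 ± 2.62. Adgrg1, an adhesion receptor of glial progenitors, had 179, 173, 210.0 and 147, and Ednrb, an endothelin receptor, had 151, 161, 186 and 157. Fgfr3, Ntsr2, Gpr37l1, Adgrg1 and Ednrb were each highest in replicate 6. The metabotropic glutamate receptors, named after their values were seen, were far apart. Grm3 had 118, 127, 135 and 132 CPM per kb and Grm5, the form of young astrocytes, 4.85, 4.603, 6.57 and 5.12.

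Secreted factors counted 17 genes among the 100 highest and 59 among the 1000 highest, of 270 measured, around a median of 9.95 CPM per kb. After Apoe, Cst3 and Sparcl1 came Cpe at 1224, 1154, 1249 and 1187 and Clu, an extracellular chaperone, at 1112, 1147, 1148 and 1094 CPM per kb. Clu was the least variable of the astrocyte markers, with a CV of 2.39%. Sparc, the relative of Sparcl1 that counteracts it at synapses, had 651, 725, 576 and 518 CPM per kb, with replicate 5 highest, whereas Sparcl1 was highest in replicate 6 and lowest in replicate 5. Htra1, a serine protease, had 526, 501, 619.8 and 528. Among the synapse-forming thrombospondins and the glypicans, named after their values were seen, Thbs1, Thbs2, Thbs3 and Thbs4 had 3.39 ± 0.604, 5.15 ± 0.83, 4.62 ± 0.636 and 17.96 ± 2.61 CPM per kb. Gpc1, Gpc4, Gpc5 and Gpc6 had 19.6 ± 3.03, 16.5 ± 1.796, 71.4 ± 7.65 and 10.4 ± 0.649 CPM per kb. Vegfa, an angiogenic factor chosen in the same way, had 113, 115, 158 and 139.

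**Figure D2:**
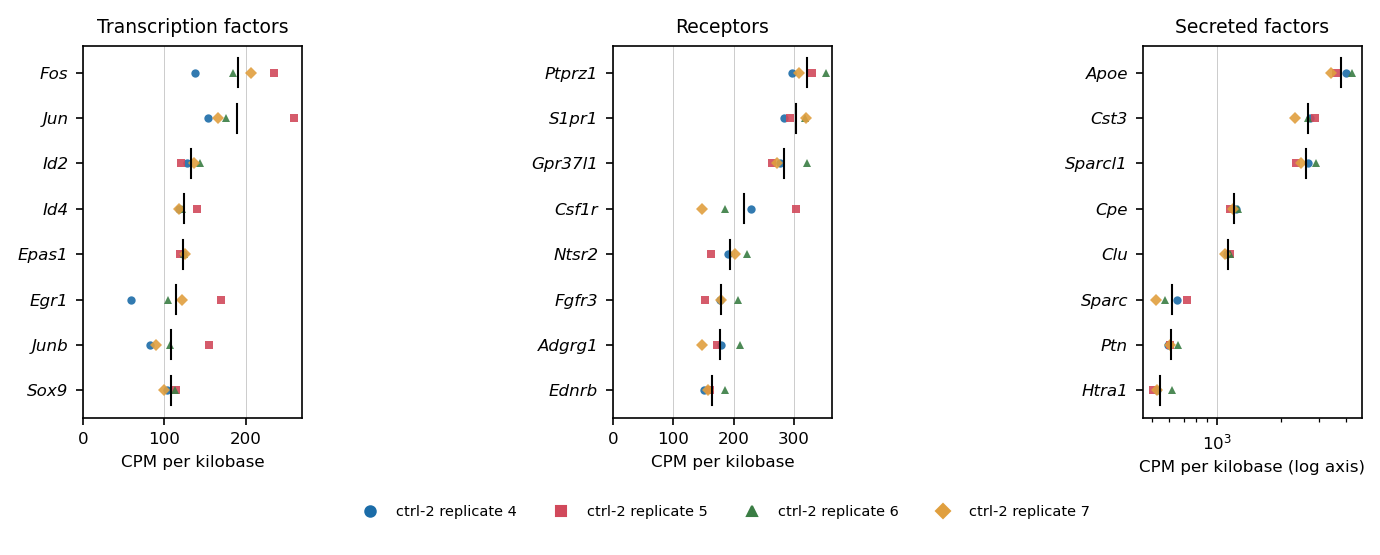
CPM per kb of the 8 highest transcription factors (left), receptors (middle) and secreted factors (right, log axis) in each ctrl-2 library (coloured symbols), with the mean as a black bar. Replicate 5 is the highest library for Fos, Jun, Egr1, Junb and Csf1r, while Epas1 and Clu hardly differ between libraries.

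The list of immature and radial glia genes shares Slc1a3 with the astrocyte markers, and no other age was measured. All 23 of its genes had a row and a mean of at least 10 CPM, as did 10492 of the 15089 genes. Of the 23, 10 were among the 1000 highest. Slc1a3, Dbi, Ptprz1 and Fabp7 were the highest of them, and Vim, an intermediate filament of radial glia and reactive astrocytes, had 215, 242, 220.0 and 182 CPM per kb, above the 38.7, 48.2, 63.8 and 49.3 of Gfap in every library. Apart from Vim and Gfap, 1 of the 31 measured genes associated with reactive astrocytes, Tm4sf1 (55.1 ± 9.496 CPM per kb), was among the 1000 highest. Serpina3n, a frequently used marker of reactivity named after its values were seen, had 23.4, 22, 30.3 and 16.5 CPM. Genes of dividing cells were detected in every library, with Top2a at 101, 111, 78.7 and 112 CPM, Mki67 at 181, 207, 144 and 197 CPM and Pcna at 45.9, 54.8, 42.9 and 49.4 CPM, and replicate 6 was lowest for these 3. The 24 genes of this list took 811, 934, 684 and 882 CPM together.

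Patterning genes of the telencephalon had a higher median level per length than those of other regions. All 11 patterning genes of the telencephalon had a row. Mfge8, a secreted phagocytosis factor high in cortical astrocytes, led at 299, 331, 364 and 313 CPM per kb, followed by the transcription factors Zbtb20 (62.5 ± 8.26), Lhx2 (37.4 ± 2.19), Nr2f1 (32.9 ± 0.768) and Emx2 (19.98 ± 1.75). Of 35 patterning genes of other brain regions, 19 had a row, and their median was 3.07 CPM per kb against 19.1 for the telencephalic list. The highest were Zic1 at 58.4, 60.1, 64.8 and 67.6 CPM and Zic2 at 45.7, 52.1, 48.2 and 55.1 CPM. Zic genes are also expressed in meninges. Nkx6-2, a gene of oligodendrocytes as well as ventral regions, had 22.5, 10.4, 17.9 and 12.3 CPM, and Otx2, which choroid plexus also expresses, had 17.3, 19.4, 23.3 and 16.6 CPM.

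Transcripts of other cell types were present in all 4 libraries. The 16 oligodendrocyte markers took 7832 ± 3645 CPM (mean ± SD, n = 4), or 0.783% of the counts, next to 53688 ± 3021 CPM and 5.37% for the 25 astrocyte markers. The 20 microglia markers took 4859.9 ± 1579.7 CPM, the 18 endothelial markers 1974 ± 169.5, the 18 markers of mural cells and fibroblasts 1926 ± 62.8 and the 15 markers of oligodendrocyte precursors 1348 ± 226. The endothelial sum includes Bsg and Slc2a1, at 612 ± 45.5 and 354 ± 8.54 CPM, which other brain cells also express, while the endothelial tight junction gene Cldn5 had 58.4, 72.8, 62.8 and 71.3 CPM. Of the mural and fibroblast list, Igf2 and Col1a1, which meningeal fibroblasts express, had 412 ± 46.9 and 202 ± 25.6 CPM, and Vtn and Rgs5 of pericytes 146 ± 10.3 and 166 ± 21.8 CPM. Ependymal and choroid plexus markers took 1155 ± 145 CPM. Per length, Ttr, the transthyretin of choroid plexus, was the highest of them, at 222, 264, 297 and 339 CPM, and genes of motile cilia included Ccdc153 at 148, 202, 150.1 and 129 CPM and Rsph1 at 107, 133, 112 and 84.6 CPM. The 27 measured neuron markers took 624 ± 111 CPM, of which Map2, also expressed outside neurons, accounted for 380.2 ± 9.83 CPM. Snap25, a synaptic protein of neurons, had 15.7, 13.2, 9.57 and 31.8 CPM and Tubb3, a neuronal tubulin, 26.4, 15.4, 14.2 and 23.5 CPM. Neuroblast and progenitor genes took 881 ± 77.5 CPM over 16 measured genes. The erythrocyte list had 2 of its 7 genes in the table, with Alas2 at 7.66 ± 2.45 CPM and Slc4a1 at 1.38 ± 0.385 CPM, and the list of border macrophages and blood leukocytes 10 of 18, with the macrophage receptor gene Mrc1 at 114, 49.8, 53.1 and 85.9 CPM. In bulk RNA, fewer cells of a type and less RNA per cell cannot be told apart.

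Between pairs of libraries, Pearson's r of log2 CPM ran from 0.985 to 0.991 across 14042 genes, which share each library and are not independent. For the 10492 genes with a mean of at least 10 CPM, the median CV was 7.72%, and 277 of them (2.64%) had a highest library more than 2-fold above the lowest. Of these 277, replicate 4 was the highest library for 133, replicate 5 for 80, replicate 7 for 58 and replicate 6 for 6. The common biological coefficient of variation, fitted by edgeR to the 4 libraries alone, was 0.135. Fitted in the same way it was 0.167 for cKO;S/+ libraries and 0.153 for cKO;S/S libraries.

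**Figure D3:**
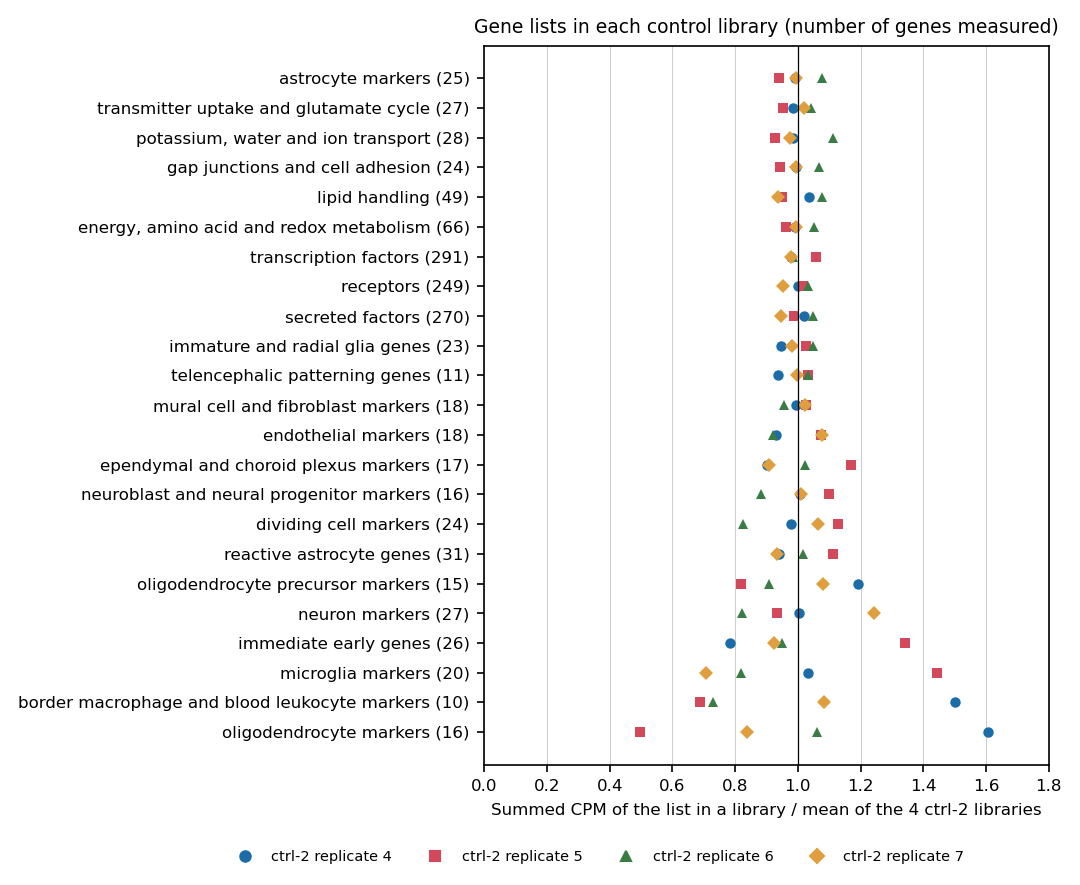
Summed CPM of 23 gene lists in each ctrl-2 library, divided by the mean of the 4 libraries, with the number of measured genes in brackets. The astrocyte lists lie close to 1, while oligodendrocyte markers range from 3889.8 CPM in replicate 5 to 12570 CPM in replicate 4.

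Oligodendrocyte genes made the largest difference between the control libraries among the lists other than the sex genes. The 16 markers took 12570, 3889.8, 8314 and 6552 CPM, a 3.23-fold range, and replicate 4 was highest for all 16, where 20.5% of the 10492 genes were highest in that library. Mbp, a main protein of myelin, had 1117, 263, 612 and 426 CPM. Mag, an adhesion molecule of myelin, had 799.8, 207, 507 and 329 CPM, Mobp 910.0, 254, 642 and 456 CPM and Cnp 1053, 395, 724 and 504 CPM. The order of the libraries was 4, 6, 7 and 5 for each of these 4 genes. Nfasc, which oligodendrocytes and neurons express at nodes of myelinated axons, followed the same order at 1893, 466, 909 and 676 CPM, and was among the 15 genes of highest variation. Precursor markers moved less, at 1606, 1106, 1224 and 1457 CPM together, with 9 of 15 highest in replicate 4 and 6 in replicate 7. Replicate 7 was highest for 19.3% of the 10492 genes. Gpr17, a receptor of committed precursors, had 386, 218, 257 and 311 CPM and Bcas1, a gene of newly formed oligodendrocytes, 197, 75.1, 114 and 104 CPM. Replicate 4 was also highest for 8 of the 10 measured genes of border macrophages and leukocytes, among them Mrc1 and F13a1, the second at 31.8, 7.97, 14.1 and 21.6 CPM.

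Microglia genes had another order. All 20 markers were highest in replicate 5, where 37.6% of the 10492 genes were highest in that library, and their sum was 5018, 7014, 3976 and 3432 CPM. Ctss, a lysosomal protease of microglia, had 475, 653, 337 and 321 CPM and reached rank 55 by its mean CPM per kb. Csf1r had 886, 1178, 718 and 574 CPM. The complement genes C1qb and C1qc had 233, 296, 186 and 150.5 and 234, 299, 175 and 148 CPM. Replicate 5 was the highest library and replicate 7 the lowest for each of these 4 genes, a range close to 2-fold. Tnf and Il1a encode cytokines that activated microglia express. Tnf had 7.49, 41.3, 17.2 and 12.3 CPM and Il1a 21.3, 124, 53.02 and 51.2 CPM, ranges of 5.52-fold and 5.83-fold, and both were among the 15 most variable genes. For both, the lowest library was replicate 4, although its microglia markers were the second highest.

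Replicate 5 was also the library of the highest immediate early gene expression. These genes are induced within minutes by many stimuli, the dissociation of tissue among them, and the 26 measured members took 2793, 4790.5, 3387 and 3301 CPM. Of the 26, 21 were highest in replicate 5, where 37.6% of the 10492 genes were highest in that library. Zfp36, which encodes a protein that destabilizes messenger RNA, had 277, 527, 338 and 271 CPM. Fos had 289, 490.1, 386 and 431 CPM, Jun 489, 827, 561 and 528 CPM and Egr1 180.0, 521, 319.9 and 374 CPM, each highest in replicate 5 and lowest in replicate 4. Of the members not highest in replicate 5, Arc and Npas4 are known from active neurons and were named after their values were seen. Arc differed little between libraries, at 15.7, 11.5, 15.6 and 14.8 CPM, and was highest in replicate 4. Npas4 was low, at 2.39, 2.05, 2.296 and 3.204 CPM, and was highest in replicate 7. Microglia and astrocytes both express immediate early genes, and which cells they came from was not tested. The promoters of Fos (chr12:85473640-85473939, plus strand) and Zfp36 (chr7:28379179-28379478, minus strand) are shown as examples of the group (RefSeq, GRCm38.p6, 5′ to 3′). Capitals mark TATAAA and the letters TGACGT, part of the cAMP response element, in Fos and a CArG box, the motif of serum response factor, in Zfp36.
Fos: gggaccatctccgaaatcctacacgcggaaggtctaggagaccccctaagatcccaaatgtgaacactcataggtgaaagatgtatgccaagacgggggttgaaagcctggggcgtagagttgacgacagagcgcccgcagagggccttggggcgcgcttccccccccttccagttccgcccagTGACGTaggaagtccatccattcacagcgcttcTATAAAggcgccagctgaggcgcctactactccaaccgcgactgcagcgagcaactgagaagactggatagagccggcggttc
Zfp36: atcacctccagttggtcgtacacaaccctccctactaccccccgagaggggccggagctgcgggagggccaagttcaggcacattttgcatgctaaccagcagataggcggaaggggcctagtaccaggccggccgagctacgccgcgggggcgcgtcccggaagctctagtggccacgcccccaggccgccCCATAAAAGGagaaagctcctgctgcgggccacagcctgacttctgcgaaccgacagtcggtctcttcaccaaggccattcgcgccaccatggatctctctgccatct
Of the 26 genes, 22 had a promoter in the table, 31 promoters in all. A CArG box was found in 16.1% of these 31 promoters, from 2 genes, against 1.63% of all 32851 promoters. All motifs were searched on both strands. TGACGT was found in 29.0% of the 31 against 7.51%, and TATAAA in 16.1% against 13.6%. The other motifs searched were the metal response letters, found in 41.9% against 25.7%, and CCAAT, found in 38.7% against 37.4%. Promoters of 1 gene can overlap, and binding was not measured.

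**Figure D4:**
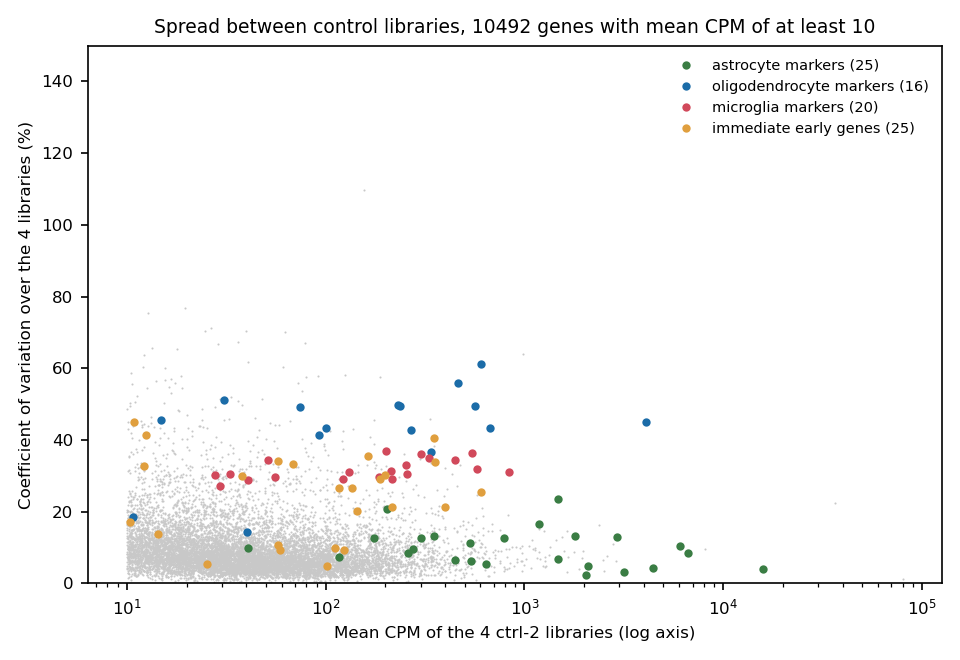
CV over the 4 ctrl-2 libraries against mean CPM (log axis) for genes with a mean of at least 10 CPM (grey), with 4 marker lists in colour and the number of genes in brackets. Xist lies above the plotted range, oligodendrocyte and microglia markers lie above most genes of their level, and astrocyte markers lie among them.

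Replicate 6 was highest for 21 of the 25 astrocyte markers and for 16 of 28 genes of ion and water transport, 13 of 27 of uptake, 12 of 24 of junctions and adhesion, and 26 of 49 of lipids, where 22.7% of the 10492 genes were highest in it. The ratio of the highest library to the lowest was 1.199 for the sum of the ion and water list and 1.15 for that of the lipid list. The sum of the ion and water list was 20520, 19292, 23136 and 20290 CPM and that of the lipid list 24958, 22910, 25992 and 22557 CPM. Replicate 7 was highest for 21 of 27 neuron markers, at 626, 583, 512 and 775 CPM together, and for 13 of 18 endothelial markers. Over the 10492 genes, 19.3% were highest in replicate 7. Syt1, a synaptic vesicle protein, had 24.7, 15.9, 11.8 and 53.5 CPM, and Stmn2, a neuronal tubulin-binding protein, 11.9, 9.403, 4.59 and 17.9 CPM. Replicate 7 differed in sex chromosome genes too. Xist, the RNA of the inactive X chromosome, had 0.239, 0.334, 0.392 and 1385 CPM, while Y-linked Ddx3y had 111, 97.99, 105 and 0 CPM, so replicate 7 alone exceeded 1 CPM of Xist and had no Ddx3y read. With 1 such library among the controls, sex and library cannot be told apart.

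Among genes with a mean of at least 10 CPM that are not sex-linked, Sspo had the highest fitted variation. It encodes SCO-spondin, a very large glycoprotein that the subcommissural organ, a gland of the midbrain roof outside the cortex, secretes into the ventricle. Its level was 271, 5.44, 334 and 13.5 CPM, so replicates 4 and 6 exceeded replicates 5 and 7 by more than 10-fold. Among 13026 genes with a mean of at least 3 CPM, 8 were more than 2-fold higher in both replicates 4 and 6 than in either of the others, and 3 more than 10-fold. The other 5 pairings of the 4 libraries gave between 0 and 3 such genes above 2-fold and none above 10-fold. The 3 genes were Sspo, Myh2, a myosin heavy chain (8.301, 0.0477, 13.04 and 0.0485 CPM), and Spdef, a transcription factor (6.54, 0.0955, 7.89 and 0.388 CPM). Car3, carbonic anhydrase 3, was among the 8 at 6.25, 2.24, 6.89 and 1.505 CPM. Myh2, Spdef and Car3 were picked out after their values were seen, and the low values of Myh2 rest on 1 read in each of replicates 5 and 7 and those of Spdef on 2 and 8 reads. In the mutant groups Sspo stood at 202, 83.3, 399 and 484 CPM (cKO;S/+) and 518, 354, 951 and 316 CPM (cKO;S/S), and Spdef at 3.91, 1.09, 6.28 and 9.55 and 10.5, 5.799, 15.8 and 6.87 CPM. Ctrl-2 replicates 5 and 7 were thus the 2 lowest of the 12 libraries for both genes, and the cKO;S/+ library with the least Sspo, replicate 9, also had the least Spdef of the mutants. Another gene of high variation, the non-coding 2610507I01Rik, had the opposite pattern at 4.01, 20.8, 4.87 and 21.4 CPM. Casr, the calcium-sensing receptor, had 49.6, 10.5, 24.7 and 14.8 CPM and was highest in replicate 4.

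**Figure D5:**
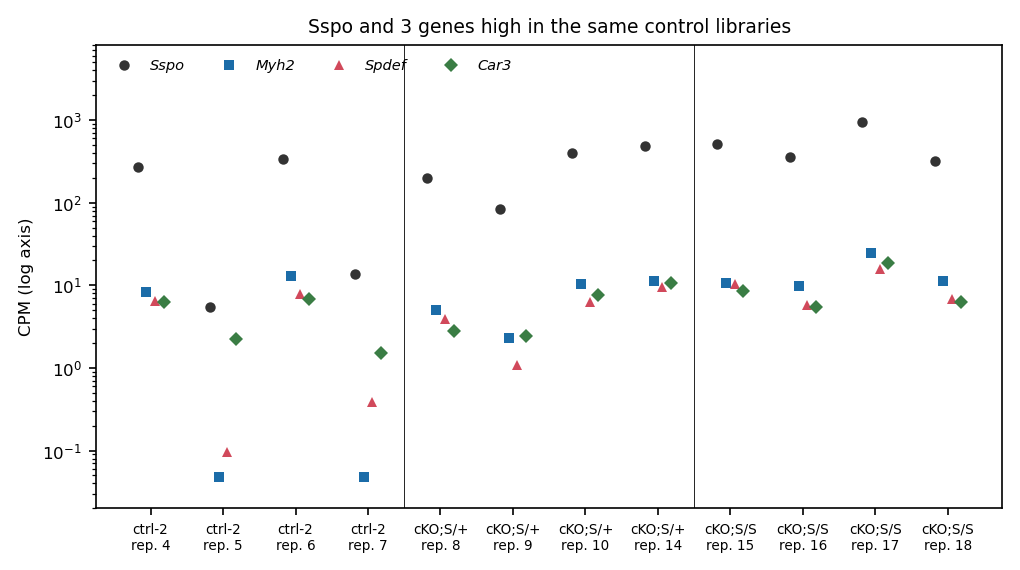
CPM (log axis) of Sspo, Myh2, Spdef and Car3 in the 12 libraries, with vertical lines between the genotypes. All 4 genes are lowest of the 12 libraries in ctrl-2 replicates 5 and 7, where Sspo has 5.44 and 13.5 CPM.

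At the other end stood the 10 genes of lowest fitted variation with a mean of at least 100 CPM. Strn3, a subunit of a phosphatase complex, had 105, 106, 105 and 104 CPM, a CV of 1.04%. Ddx23, a helicase of the spliceosome, had 104, 107, 103 and 106 CPM. Cdk12, Marf1, Mybbp1a, Rbm6, Phf14, Bdp1 and Mta1 were also among the 10, all with a CV of at most 3.11%.

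Control and mutant levels were compared over the 15089 genes with the quasi-likelihood test of edgeR. The deleted gene itself, Nmnat2, had 38.7, 35.6, 37.3 and 42.4 CPM in ctrl-2 libraries, 20.9, 20.7, 20.3 and 29.4 CPM in those of cKO;S/+ mice and 42.6, 19.9, 31.2 and 26.5 CPM in those of cKO;S/S mice. Sarm1 had 12.8, 8.16, 11.03 and 5.73 CPM in the first group, 10.1, 9.27, 9.66 and 6.13 in the second and 7.103, 4.82, 5.22 and 7.22 in the last. For Nmnat2 no ctrl-2 library overlapped a cKO;S/+ library, whereas the ranges of ctrl-2 and cKO;S/S overlapped. The study places Nex-Cre expression in glutamatergic neurons. Which of the sorted cells the Nmnat2 reads came from, and whether Nex-Cre acted in them, was not tested. Against ctrl-2, 1098 genes passed in cKO;S/+, 7.28% of those tested, 890 of them higher (5.9%) and 208 lower (1.38%). With upper quartile scaling the split was 805 higher and 371 lower. In cKO;S/S, 0 genes passed (0%), while 1025 were higher and 735 lower at an unadjusted p under 0.05 and DESeq2 called 31 higher and 27 lower. The cKO;S/+ calls depended on single libraries. Without ctrl-2 replicate 4, 6 or 7, or without cKO;S/+ replicate 8, no gene passed, without cKO;S/+ replicate 10, 37 passed, without replicate 9, 468, and without replicate 14, 2578. Sex chromosome genes were not balanced between the groups: more Xist than Ddx3y reads were counted in 1 of 4 ctrl-2, 3 of 4 cKO;S/+ and 2 of 4 cKO;S/S libraries. With this pattern as a term of the edgeR fit, an alternative chosen after seeing the data, 0 genes passed in cKO;S/+, where 2652 had an unadjusted p under 0.05 and the smallest adjusted p was 0.0562. All 1098 genes kept the sign of their difference in that fit, and 1097 had an unadjusted p under 0.05. Every call named in the next paragraphs is from the fit without this term and was lost with it.

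Of the 25 astrocyte markers, 1 was lower in cKO;S/+ and none higher, a share of 4% beside the 7.28% over all genes. The 1 was Gjb2, at 34.8, 43.8, 42.9 and 41.8 CPM in control libraries and 28.7, 29.2, 28.4 and 36.9 CPM in cKO;S/+, with overlapping ranges (edgeR adjusted p = 0.0386 with a log2 difference of -0.41 and an SE of 0.11). None of the 28 ion and water genes passed, and of 66 metabolism genes 1 was higher (Hk2) and 1 lower (Fmo1). The study describes HK2 as mainly a microglial enzyme. In ctrl-2 libraries Hk2 had 61.7, 85.2, 50.9 and 47.3 CPM, the same order of libraries as the summed microglia markers. Which cells its reads came from was not tested. Of 27 uptake genes, Slc6a6, a taurine transporter, was higher, and Slc1a4 and Aldh5a1, an enzyme of GABA breakdown, were lower. In the lists of junctions and adhesion (1 higher and 5 lower of 24), lipids (2 and 9 of 49) and immature glia (0 and 7 of 23), lower calls outnumbered higher ones, the reverse of the split over all genes. Fabp7 fell from 139.8, 176, 211 and 157 to 85.5, 92.2, 100.3 and 117 CPM (edgeR adjusted p = 0.0179 with a log2 difference of -0.79 and an SE of 0.14). Ptprz1 fell from 2399, 2665, 2849 and 2482 to 1397, 1598, 1688 and 1910.3 CPM (edgeR adjusted p = 0.0186 with a log2 difference of -0.66 and an SE of 0.12), and Tnc, the extracellular matrix protein tenascin C, from 87.2, 102, 114 and 91.7 to 43.5, 40.2, 38.7 and 58.7 CPM (edgeR adjusted p = 0.0138 with a log2 difference of -1.13 and an SE of 0.16). For these 3 genes no ctrl-2 library overlapped a cKO;S/+ library.

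Over all genes, 5.9% were called higher and 1.38% lower. Of the 20 microglia markers 15 were higher in cKO;S/+ and none lower, of 26 immediate early genes 18 and 0, of 31 reactive genes 10 and 0, and of 291 transcription factors 54 and 6. The lists share members, so these counts are not independent. Fos, Jun, Junb, Egr1 and Atf3 belong to both the immediate early and the transcription factor list, and Csf1r to both the microglia and the receptor list. The summed microglia markers ran from 3432 to 7014 CPM over the ctrl-2 libraries, from 6247 to 11388 over those of cKO;S/+ mice, and from 4813 to 7139 over those of cKO;S/S mice. For immediate early genes the ranges in the same order were 2793 to 4790.5, 5493 to 9667 and 4174 to 7160.4 CPM. Ctrl-2 replicate 5, the control with the most microglia transcripts, overlapped the lowest cKO;S/+ library in the first list but not in the second. Oligodendrocyte markers gave no call, with 3889.8 to 12570 CPM in ctrl-2 and 3783 to 7642 in cKO;S/+. Among secreted factors (33 higher and 12 lower of 270), Csf1, the growth factor of microglia, rose from 85.7, 106, 92.1 and 82.7 to 301, 319, 296 and 145 CPM (edgeR adjusted p = 0.0138 with a log2 difference of 1.53 and an SE of 0.22). Among receptors (22 higher and 12 lower of 249), Tlr2, a receptor of innate immunity, rose from 12.9, 17.4, 10.9 and 10.3 to 69.9, 58.5, 64.4 and 20.4 CPM (edgeR adjusted p = 0.014 with a log2 difference of 2.05 and an SE of 0.32). The part that microglia transcripts play in these calls was not tested.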

How the data were processed

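The series holds 12 RNA-seq libraries of ACSA-2-sorted cortical cells (postnatal day 16), which were grouped by genotype label. The authors' table holds raw read counts per gene, deposited without normalization, and log2 CPM values that the authors made and that were not used here. Gene lengths in bases, also deposited, served for scaling. Tools listed by the submitters' processing notes were edgeR 4.2.1, Subread 2.0.3 with featureCounts, STAR 2.7.10a and FastQC 0.11.5, with mm10 as build. The strand setting was not given in the sources used here, nor was the annotation, so reads of overlapping genes cannot be told apart. A further 12 columns hold the authors' fold changes, p-values and false discovery rates and were not used. Of 15089 symbols, 15051 matched a RefSeq gene (GRCm38.p6), 14106 of them by Entrez identifier, and for 15042 the deposited exons overlapped the RefSeq position.

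Counts were scaled by TMM over the 12 libraries in edgeR 4.0.16 (R 4.3.3, limma 3.58.1) to CPM, and divided by length in kilobases. Ranks leave out Rn45s and 111 rows under 200 bases. No pseudocount was added, and the table has 0 mitochondrial rows. The quasi-likelihood test used all 12 libraries, 9 residual degrees of freedom, two-sided p-values and Benjamini-Hochberg adjustment at 0.05, and filterByExpr removed 0 genes. In a simulation of cKO;S/+ against ctrl-2 over 15060 genes, 200 genes above a minimum level were changed. The test called 91% of those changed by 1 log2 unit and 100% of those changed by 2, with 8 false calls. The simulated libraries had no shared differences in sex or in admixed cells, so these shares need not hold for the real libraries. Levels and spread in ctrl-2 are descriptions without a test, and DESeq2 1.42.0 was an alternative. Values come from 1 mouse each, so errors join biological and technical spread, and at 17903861 to 20998871 reads counting error is small for all but the lowest genes.

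The cells, gene lists and rules were chosen with earlier results of these data known. Named are the 4 markers, the 25 highest genes, the 8 highest of each astrocyte role list and up to 5 of each of the other lists, the 15 most variable genes with a mean CPM of at least 10 and the 10 least variable with at least 100, up to 4 called members per list, and relatives of these, of which some are not reported here. Arc, Npas4, Nmnat2, Sarm1 and the genes marked in the text were named after their values were seen. Promoters are from RefSeq. Figures were drawn with matplotlib.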

Additional observations from a re-analysis of the deposited data

Results flagged for a closer look

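In a group of 4, a library was picked out when its gap to the nearest other library exceeded the critical share of the whole range, which chance does in about 1 of 20 groups. Of 225 values looked at (27 list sums and 198 named genes), 6 met this. Xist was one, with replicate 7 at 1385 CPM and a share of 0.9999 of the range. The Y-linked genes Ddx3y (0.885), Kdm5d (0.853) and Uty (0.906) were picked out by the same library, with 111, 97.99, 105 and 0, 44.03, 48.7, 51.6 and 0 and 37.98, 36.4, 40.2 and 0.0485 CPM, and so was the sum of the 6 sex genes (0.972), at 240.3, 230.3, 263 and 1388 CPM. The sixth was the sum of the 291 transcription factors (0.901), at 22652, 24469, 22832 and 22666 CPM, in which the highest library, replicate 5, was 1.08 times the lowest. That list includes immediate early genes such as Fos, Jun, Egr1 and Junb, which were also highest in replicate 5.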

How the results depend on the processing

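The number of genes called in cKO;S/+ (1098) was 1106 with RLE size factors, 1176 with upper quartile scaling, 1098 without a further filter and 1118 after a filter of 1 CPM in 4 or more libraries. It fell to 668 with the 2 groups fitted alone and rose to 1865 with DESeq2. With the sex chromosome pattern as a covariate, chosen after seeing the data, it was 0. With single libraries left out it ran from 0 to 2578. In cKO;S/S the count of 0 became 58 with DESeq2, stayed 0 under the other scalings, the filters and the covariate, and ran from 0 to 5 with single libraries left out, the 5 without cKO;S/S replicate 18. The cause of these differences was not tested. The common coefficient of variation of ctrl-2 (0.135) was 0.135 with RLE factors, 0.121 among genes with a mean of at least 10 CPM and 0.120 to 0.146 without single libraries. The split of upper quartile calls was 805 higher and 371 lower, against 890 and 208. Of the 198 ranks of named genes, 146 moved by more than the SD over libraries when length was left out of the ranking and 19 without the length minimum, and 11 of the values with a library left out did so against 781 that did not. Of 27 list sums, 0 moved so far under plain library totals and 17 when Rn45s was left out of the totals. The highest library was the same under these 3 scalings for 25 lists, the exceptions being uptake (replicate 6 or 7) and mural cells (5 or 7). No paired analysis was made, because the sample labels used here do not give the litter of each mouse.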
